A study of Glycine max with 24 samples.

Results

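Root tips of the soybean plant introduction PI 416937 (Glycine max), called PI below, were compared after 72 h and after 12 h in solution with 10 µM aluminium (Al) and no added magnesium. The comparison rests on the 6 arrays of PI under Al alone, 3 at 72 h and 3 at 12 h, out of 24 arrays in the series. All 24 came from roots grown in hydroponic culture with Al in the solution, and each held the RNA of the last 1 cm of the root. The design crossed 2 genotypes with 2 treatments and 2 times. Besides PI at 72 h and PI at 12 h under Al alone, 4 groups of 3 arrays are used here for contrast. These are PI at 72 h and PI at 12 h under Al plus magnesium (Mg), and the cultivar Young at 72 h and Young at 12 h under Al alone. The labels call PI sensitive and Young tolerant to Al, and give no Mg dose. Elsewhere PI 416937 is known as an Al-tolerant genotype, so the values of PI and Young below are given by genotype name and not by tolerance. An Al-free group was not analysed here, and a difference between 72 h and 12 h holds 60 h of further growth as well as 60 h of further exposure, which cannot be told apart. The growth chamber was lit for 16 h at 28 °C and dark for 8 h at 20 °C, and 60 h is 12 h short of whole days, so the harvests also fall 12 h apart in the daily cycle if each time counts from a shared start. The hour of harvest is not given, and time of day cannot be told apart from length of exposure.

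Aluminium becomes toxic to roots in acid solution, where its ions bind to cell walls and membranes of the tip and stop elongation. Plants answer with organic acid release, changes to the wall, and broad stress and defence programmes that run through WRKY and NAC transcription factors, glutathione transferases and pathogenesis-related (PR) proteins. Magnesium is known to lessen Al toxicity in several legumes.

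Each Affymetrix array gave 1 intensity for each probe set, and values below are log2 intensities unless a fold is named. Soybean probe sets, 37593 with an ID that starts in Gma, were tested with limma in a model of all 8 groups, and an adjusted p (Benjamini-Hochberg) under 0.05 counted as passing. An array's background bound was the 99th percentile of its probe sets for other organisms, 2.75 to 2.83 on the 6 arrays, and 79.4% to 81.0% of the soybean probe sets lay above it. An unexplained c closes the titles of all Al-alone arrays, and nothing says whether replicates were separate plants, pools or repeats, so p-values measure the spread between these arrays only. Over the 33117 probe sets above a signal filter, arrays of 72 h correlated with each other at 0.985 to 0.989, arrays of 12 h at 0.985 to 0.992, and arrays of different times at 0.929 to 0.965. Among the 5539 probe sets that rose and lay above background in at least 1 array at 12 h, replicate 1 was the highest 12 h array for 2842 (51.3%), and this array stood nearest to 72 h for many of the defence genes below. The tissue label was checked against marker lists. All 12 seed storage genes lay at background on all 6 arrays, as did 8 of 12 nodulin genes, while 3 nodulin genes lay above it on all 6. Of 10 photosynthesis genes, markers of leaf or shoot, 6 lay above background on all 6 arrays and none at background on all 6. Summed intensities of the 10 genes of cell division, meristem and cytoskeleton were 84770 to 90740 at 72 h and 93630 to 99220 at 12 h, and those of 15 cell wall genes were 113300 to 130600 at 72 h and 138900 to 157600 at 12 h. Fewer cells of a type and less RNA per cell cannot be told apart in such tissue samples.

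The time difference in PI under Al alone was broad. Relative to 12 h, 5900 probe sets (15.7%) were higher at 72 h and 8844 (23.5%) were lower, 14744 (39.2%) in all. The rises were fewer and larger. Their median size was 0.997 on the log2 scale, whereas that of the falls was 0.696. Of the rises 2944 exceeded 2-fold, 49.9% of the rises and 7.83% of all tested probe sets. Of the falls 2098 did, 23.7% of the falls and 5.58% of all tested probe sets. The median over all tested probe sets was −0.0049, and 49.4% of them had arrays that did not overlap between the times. Gene names were available for part of the array. Of 6029 genes with a probe set of their own, 1190 (19.7%) rose and 1656 (27.5%) fell, 47.2% in all, with a median difference of −0.03. The counts for lists below are read against these shares.

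**Figure D1:**
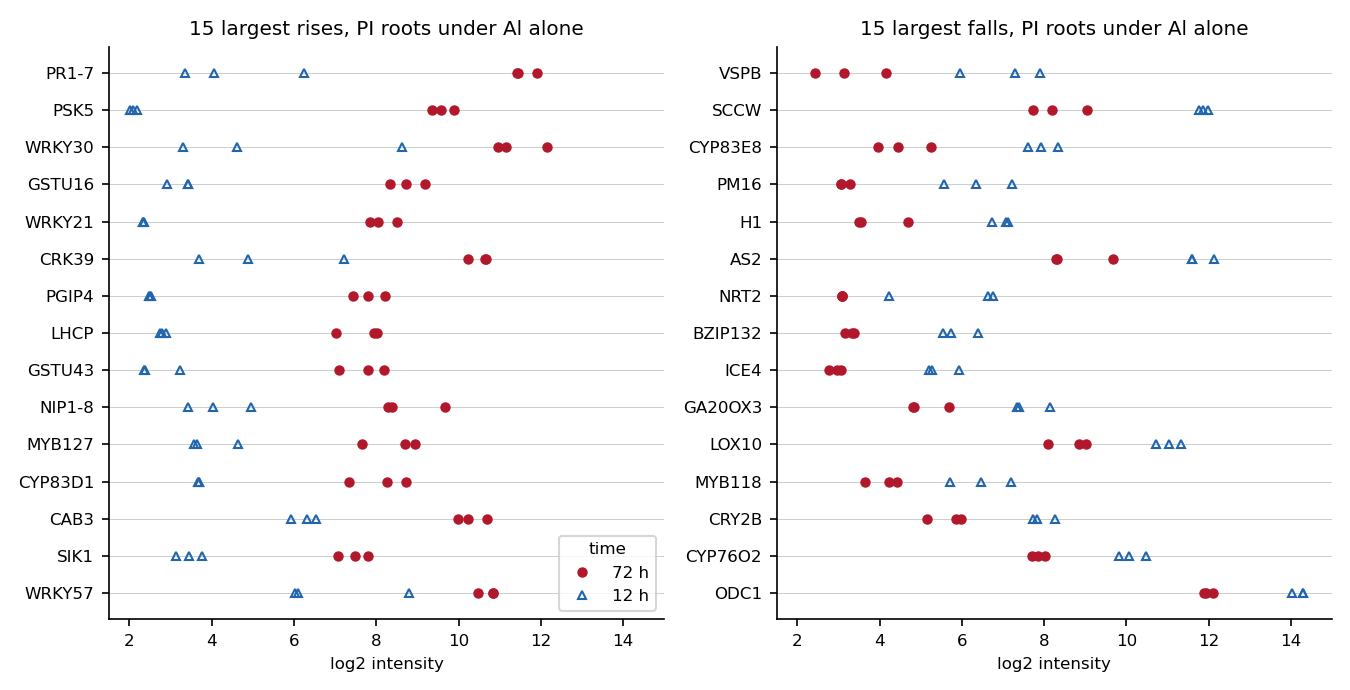
Log2 intensities of the named genes with the 15 largest rises (left) and the 15 largest falls (right) in PI roots under Al alone. Each gene has 3 filled circles for the arrays at 72 h and 3 open triangles for those at 12 h. The times do not overlap for any of these genes, a condition of their choice, and the 12 h arrays of WRKY30 spread over 3.31 to 8.63.

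Pathogenesis-related proteins held the largest rise of a named gene with signal at both times. PR1-7, a member of the PR1 family of secreted antimicrobial proteins, had 11.90, 11.45 and 11.43 at 72 h, against 6.24, 3.36 and 4.06 at 12 h. The arrays at 72 h lay close together and far above the 12 h arrays, of which replicate 1 was the highest, and the difference was 7.04 ± 1.24 (SE, adjusted p = 2.89e-04). Without 12 h replicate 1 it was 7.89, and a second probe set rose by 3.94. OLPa, an osmotin-like protein of the PR5 family, reached 14.07, 13.87 and 13.56 at 72 h, against 11.16, 10.57 and 10.19 at 12 h, a 9.15-fold rise (adjusted p = 4.15e-06). PR1-1 had 13.46, 14.40 and 13.56 at 72 h and 12.89, 9.14 and 10.32 at 12 h. Its rise of 3.02 (adjusted p = 0.0111) did not pass without 12 h replicate 2, the lowest array (2.20, adjusted p = 0.0713), or with the 6 arrays fitted alone (adjusted p = 0.0880). PR-10, another pathogenesis-related protein, was abundant at both times, with 14.27, 14.32 and 13.68 at 72 h and 13.14, 12.33 and 12.33 at 12 h, and rose by 1.49. The immune regulators EDS1-2 and PAD4, partners in basal resistance in Arabidopsis, rose by 1.09 and 0.91. In the list of 25 defence proteins 10 rose and 1 fell, against 19.7% and 27.5% of all genes, and 8 or 9 rose with any 1 of the 6 arrays left out. The list median was 0.28. The one that fell was LOC547729, named BGL, at −1.43, and 14 did not pass, among them the chitinase CHIA1 at 0.05 and EDS5, a salicylate-pathway transporter in Arabidopsis, at −0.37.

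Signal peptides and receptor kinases included 1 transcript above background at 72 h but not at 12 h. PSK5, a precursor of the peptide hormone phytosulfokine, had 9.35, 9.89 and 9.56 at 72 h and lay at background on all 3 arrays at 12 h, so it was at least 110-fold higher at 72 h (adjusted p = 1.18e-07). CRK39, a cysteine-rich receptor-like kinase, had 10.66, 10.22 and 10.65 at 72 h, against 7.22, 4.89 and 3.70 at 12 h. The 12 h arrays again were led by replicate 1, and the rise was 37.8-fold (adjusted p = 2.02e-05). SIK1, a stress-induced receptor-like kinase, stood at 7.80, 7.47 and 7.06 at 72 h and at 3.13, 3.77 and 3.46 at 12 h, a tight separation with a rise of 3.99 ± 0.26 (SE). The list counted 6 rises and 2 falls among 19 members, with a median of 0.04. SERK1, a co-receptor kinase known from embryogenesis in Arabidopsis, fell by 0.82. Of calcium sensors, the calmodulin SCAM-5 rose by 1.98 (adjusted p = 0.00115), although another of its probe sets differed by 0.0015, and the calcium-dependent protein kinase CDPK passed at 0.40 but passed only in 1 of the 6 fits that left out an array, the one without 12 h replicate 1 (adjusted p = 0.0157). In the others its adjusted p was 0.0557 to 0.288, the highest without 12 h replicate 2, where the difference was 0.22.

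WRKY transcription factors, which bind W boxes in the promoters of defence genes, rose in over 50% of members. Of 53 members 29 rose, 6 fell and 18 did not pass, and the list median was 0.92 (0.88 with arrays at background set to their bound). WRKY30 had 10.97, 12.15 and 11.15 at 72 h, against 8.63, 3.31 and 4.61 at 12 h. Its 12 h arrays spread widely, and the rise of 5.91 ± 1.11 (SE, adjusted p = 4.82e-04) became 7.47 without 12 h replicate 1. WRKY21 had 8.51, 8.05 and 7.84 at 72 h and lay at background on every 12 h array, so it was at least 39.9-fold higher at 72 h (adjusted p = 3.18e-14). WRKY57 had 10.83, 10.83 and 10.48 at 72 h, against 8.80, 6.02 and 6.09 at 12 h. WRKY58 was among the most intense, at 13.71, 13.81 and 13.22 at 72 h and 11.86, 8.76 and 9.40 at 12 h. The rises of these genes were 3.75 and 3.57, and in both the 12 h replicate 1 stood apart from the others. It was the highest 12 h array for 22 of the 27 WRKY genes that rose and lay above background at 12 h. Leaving it out gave 28 rises and 6 falls, and leaving out any of the 6 arrays gave 24 to 30 rises. The 6 members that fell did so by 0.35 to 1.08, with WRKY15 lowest at −1.08 and WRKY59 at −0.72.

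NAC factors, a plant family that includes regulators of senescence and stress, showed 10 rises and 1 fall in 20 members, with a median of 0.84. NAC6 had 10.99, 10.85 and 10.15 at 72 h, against 8.45, 6.78 and 7.0 at 12 h, a rise of 3.25 ± 0.45 (SE, adjusted p = 3.51e-05). NAC23 had 12.49, 12.07 and 11.51 at 72 h and 9.33, 9.31 and 9.05 at 12 h. Its 12 h arrays were nearly equal, and it rose by 2.79. The number of NAC rises was 6 without 12 h replicate 1, without 12 h replicate 3 or without 72 h replicate 1. LOC100816770, named NAC55, rose by 2.93 and LOC100814504, named NAC69, by 2.38, while NAC51 passed at −0.70 but not without 12 h replicate 1 or 2 or 72 h replicate 1 or 2 (adjusted p = 0.115 to 0.166). Of 69 MYB factors 18 rose and 10 fell, with 11 rises without 72 h replicate 1. MYB127 had 8.71, 8.95 and 7.65 at 72 h, against 4.63, 3.64 and 3.57 at 12 h, and MYB76 was at least 12.2-fold higher at 72 h since it lay at background at 12 h. MYB118 went the other way, with 3.65, 4.24 and 4.43 at 72 h and 5.71, 7.19 and 6.46 at 12 h. Of 66 bZIP factors 20 rose and 13 fell, with 11 rises without 72 h replicate 1. BZIP132 fell to 3.33, 3.38 and 3.16 at 72 h, against 5.73, 6.39 and 5.55 at 12 h. Of 15 ERF and DREB factors 6 rose and 2 fell, with 3 rises without 72 h replicate 1, 1 fall without 12 h replicate 2 and none without 72 h replicate 2. DREB2A2, a dehydration-responsive factor, rose by 2.19 (adjusted p = 0.00636). Of 18 heat shock proteins and factors 6 rose and 1 fell, with 3 rises without 12 h replicate 3 or without 72 h replicate 2, and with 0 to 3 falls over the 6 arrays left out. HSF-01, a heat shock factor, rose by 1.74.

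**Figure D2:**
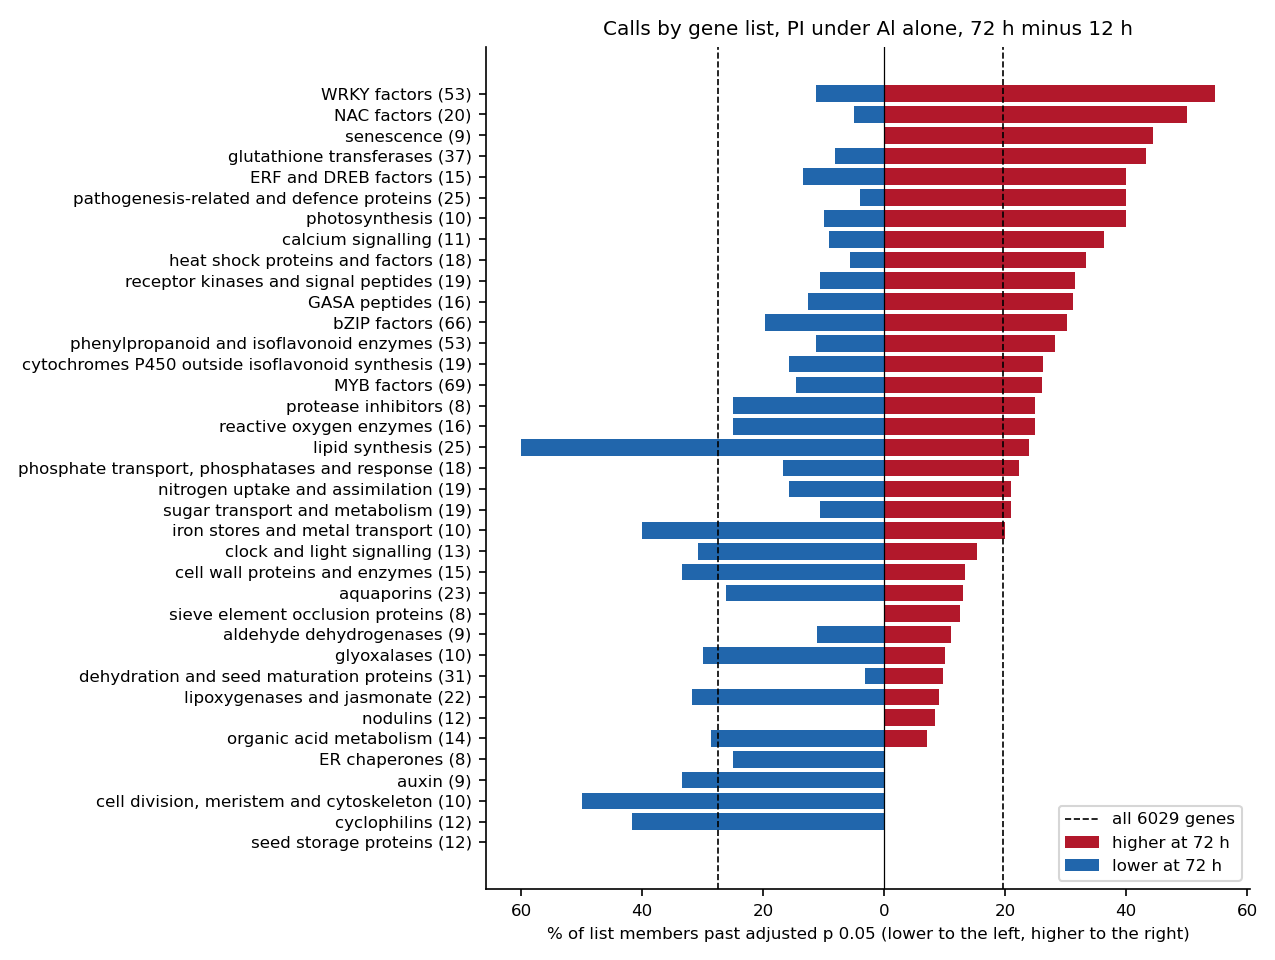
Share of list members past an adjusted p of 0.05 in PI under Al alone, 72 h minus 12 h, in %, with higher members to the right and lower members to the left. The number of members stands beside each list of 8 or more, and the dashed lines mark the shares among all 6029 genes, 19.7% higher and 27.5% lower. WRKY and NAC factors lead on the right and lipid synthesis on the left.

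Glutathione transferases, which join glutathione to reactive compounds, rose in 16 of 37 members and fell in 3, with a median of 0.55. LOC548031, named GSTU16, had 9.18, 8.73 and 8.33 at 72 h, against 3.42, 3.41 and 2.91 at 12 h, a 45.3-fold rise (adjusted p = 1.43e-10). GSTU43 had 8.19, 7.80 and 7.09 at 72 h, while only 1 of its 12 h arrays lay above background, so its rise was 4.74 or more. GSTU42 was already intense, with 14.97, 15 and 14.80 at 72 h and 12.19, 11.61 and 11.39 at 12 h, and rose by 3.19 ± 0.29 (SE). In all 3 the replicates of a time lay close together and the times were far apart. GSTU9 rose by 3.25, although its second probe set differed by only −0.0011. LOC100305870, named GSTU35, and GSTU17 fell by 1.16 and 1.28. The count of rises was 14 to 16 with any 1 array left out. Of 16 other enzymes of reactive oxygen 4 rose and 4 fell. Only 2 rose without 12 h replicate 1, without 12 h replicate 3 or without 72 h replicate 1, and 2 fell without 72 h replicate 1. PRX2 and PRX4 rose by 0.50 and 0.68, and DHAR4, a dehydroascorbate reductase, and GR, glutathione reductase, fell by 0.61 and 0.50. AOX1, an alternative oxidase of the mitochondrial chain, had 11.41, 10.93 and 10.85 at 72 h and 7.63, 9.79 and 9.70 at 12 h. Its difference of 2.02 (adjusted p = 0.0236) did not pass without 12 h replicate 1 (1.32, adjusted p = 0.141), without 72 h replicate 1 (1.85, adjusted p = 0.0827) or with the 6 arrays alone (adjusted p = 0.0770). OAS-TL2, an enzyme of the last step of cysteine synthesis, rose by 2.50, and OAS-TL7 by 1.26.

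Enzymes of soybean's defence metabolites rose in part. PT01, also called G2DT-2, a prenyltransferase of glyceollin synthesis, had 11.26, 11.06 and 11.03 at 72 h, against 8.68, 8.58 and 6.73 at 12 h. It rose 8.69-fold (adjusted p = 7.17e-05), with 12 h replicate 3 the lowest array. CYP93A1, the pterocarpan hydroxylase of the same pathway, rose by 1.51, and its relative CYP93A2 by 1.92. Of earlier steps, C4H and IFS1, the isoflavone synthase, rose by 0.38 and 0.54, and 4CL2 by 0.85. CHI2-A, a chalcone isomerase that acts before the isoflavone synthase, fell to 5.60, 7.29 and 7.26 at 72 h, against 9.08, 8.31 and 8.73 at 12 h. IF7GT, an isoflavone glucosyltransferase, fell by 1.53. In the list of 53 phenylpropanoid and isoflavonoid enzymes 15 rose and 6 fell, with a median of 0.15, against 19.7% and 27.5% of all genes. With any 1 array left out 10 to 16 rose, and the 10 rises without 12 h replicate 3 are a share near that of all genes. F6H1, a flavonoid hydroxylase, was at least 4.52-fold higher at 72 h. It was high in 1 array, with 4.41, 7.10 and 3.46 at 72 h, and had a fitted difference of 2.68, against 1.63 without 72 h replicate 2. With the 6 arrays alone it did not pass (adjusted p = 0.103). Among cytochromes P450 outside this pathway, 5 of 19 rose and 3 fell, with 1 fall without 12 h replicate 3 or without 72 h replicate 2. CYP83D1 had 8.26, 7.34 and 8.73 at 72 h, against 3.67, 3.69 and 3.70 at 12 h. CYP82A2 had 13.51, 13.75 and 12.83 at 72 h and 11.19, 9.55 and 9.75 at 12 h. Both belong to P450s known from elicitor-treated soybean cells, and their rises were 4.43 and 3.20, though a second probe set of CYP83D1 differed by only 1.01. CYP76O2 fell to 7.70, 8.03 and 7.84 at 72 h, against 10.48, 10.08 and 9.82 at 12 h. CYP83E8 fell by 3.41 (adjusted p = 0.0339), a call that ended without 72 h replicate 1 or 2 and without any 1 of the 12 h arrays (adjusted p = 0.0557 to 0.0943).

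Lipoxygenases and enzymes of jasmonate synthesis had falls at a share near that of all genes. Of 22 members 7 fell, against 27.5% of all genes, 2 rose and 13 did not pass, with a median of −0.34. Without 72 h replicate 1 there were 4 falls and 1 rise, and without 72 h replicate 3 there were 4 rises. Without 12 h replicate 2 or 3 there was 1 rise. LOX10 fell to 8.09, 8.84 and 9.01 at 72 h, against 11.04, 10.73 and 11.34 at 12 h, by 2.38 ± 0.43 (SE, adjusted p = 3.75e-04). AOC4, an allene oxide cyclase, fell to 8.2, 8.75 and 8.94 at 72 h, against 10.46, 10.73 and 10.67 at 12 h. AOC3 fell by 0.66, while LOC100800036, named AOC2, rose by 1.39 (adjusted p = 0.00509), a call that ended with the 6 arrays alone (adjusted p = 0.134). In both LOX10 and AOC4 the 2 sets of arrays stood well apart. LOC547820, named VSPB, a vegetative storage protein induced by jasmonate in leaves, had 2.42, 4.17 and 3.13 at 72 h and 7.30, 5.96 and 7.91 at 12 h. Since 1 array at 72 h lay at background, its fall was 3.70 or more (adjusted p = 0.0341). The call ended without 72 h replicate 1 or 3 and without 12 h replicate 1 or 3 (adjusted p = 0.0702 to 0.115), and a related gene, VSPA, stood at 1.79 (adjusted p = 0.0943).

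**Figure D3:**
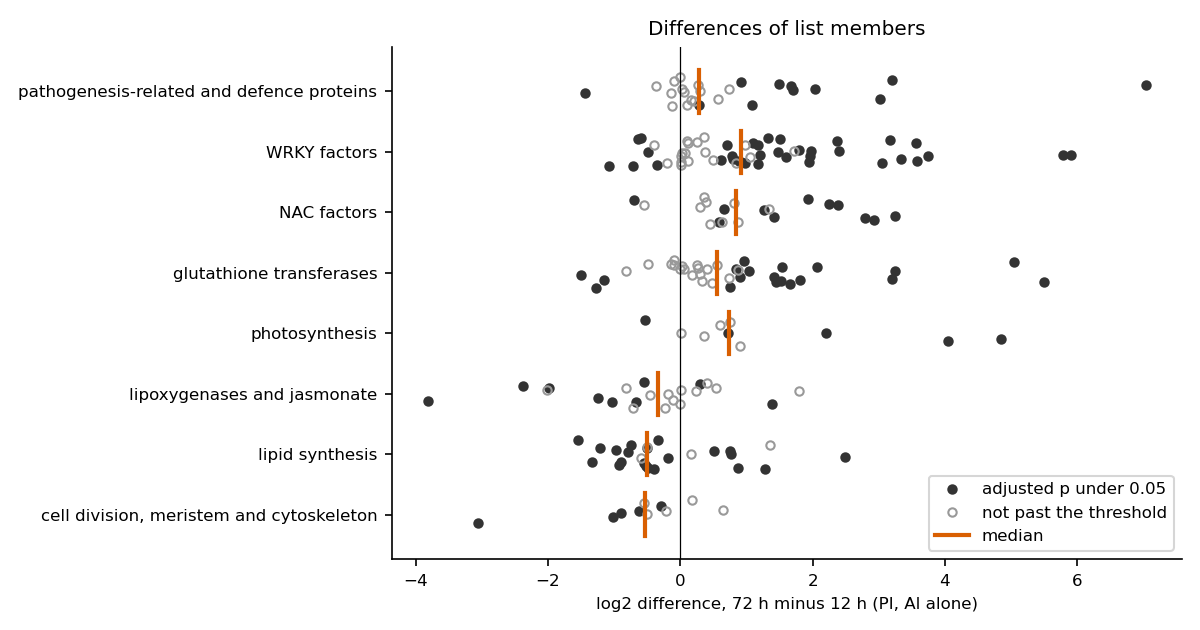
Log2 differences, 72 h minus 12 h, of every member of 8 gene lists in PI under Al alone. Filled points passed an adjusted p of 0.05, open points did not, and the vertical bar is the list median, which runs between 0.92 for WRKY factors and −0.53 for the list of cell division, meristem and cytoskeleton.

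Genes tied to growth that passed were mostly lower at 72 h, and among all genes 27.5% fell and 19.7% rose. H1, also called Sbh1, a KNOTTED-type homeobox gene of meristems, fell to 4.69, 3.49 and 3.54 at 72 h, against 6.72, 7.12 and 7.08 at 12 h, 8.36-fold (adjusted p = 7.57e-07). TUBB2, a β-tubulin, fell to 12.69, 13.14 and 13.27 at 72 h, against 13.98, 14.09 and 14.06 at 12 h, and LOC100808044, named FEN1, a flap endonuclease of DNA replication, fell by 0.63. None of the 10 genes of cell division, meristem and cytoskeleton rose and 5 fell, with a median of −0.53, and 1 rose without 72 h replicate 1. Of 15 cell wall genes 2 rose and 5 fell, with a median of −0.29. This share of falls was near that of all genes. Only 3 fell without 12 h replicate 2 or 3 or without 72 h replicate 2 or 3. EXP2, an expansin that loosens walls, had 5.32, 6.5 and 6.64 at 72 h and 8.02, 8.57 and 8.28 at 12 h. PG7, a polygalacturonase, and GRP, a glycine-rich protein, fell by 1.91 and 1.43. The 2 wall genes that rose both encode polygalacturonase-inhibiting proteins, known from defence against fungal wall enzymes. PGIP4 had 8.22, 7.79 and 7.43 at 72 h and lay at background at 12 h, at least 31.9-fold higher at 72 h (adjusted p = 3.48e-10), and PGIP rose by 1.58.

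Of 6 gibberellin genes 2 rose and 1 fell, with a median of −0.01, and 1 or 2 rose with any 1 array left out. Those given here moved in opposite directions. GA20OX3, which makes precursors of active gibberellins, fell to 4.82, 4.83 and 5.69 at 72 h, against 7.39, 7.35 and 8.14 at 12 h (adjusted p = 8.88e-05). GA2OX8, of a family that inactivates gibberellins, rose to 8.68, 8.34 and 7.79 at 72 h, against 6.14, 6.0 and 4.88 at 12 h (adjusted p = 3.15e-04). A second GA2OX8 probe set differed by 0.75. Among the 16 GASA peptides, small gibberellin-regulated proteins, 5 rose and 2 fell (1 without 72 h replicate 1), with GASA22 at 2.67 and GASA21 at −1.83. Of 9 auxin genes none rose and 3 fell, with a median of −0.08. That share of falls was near the 27.5% of all genes. LAX11, an auxin influx carrier, fell by 1.08, and AUX22, an early auxin-induced gene, by 1.48, a call that ended without 72 h replicate 1 (adjusted p = 0.0554). Water channels passed in both directions. NIP1-8, a nodulin-26-like channel, had 8.38, 9.68 and 8.28 at 72 h, against 4.96, 3.42 and 4.04 at 12 h, a 25-fold rise (adjusted p = 1.46e-07). PIP2-1, a plasma membrane aquaporin, fell by 0.90 and PIP2-13 by 0.41, while PIP1-4 passed at 0.47, but not without 12 h replicate 1 or 72 h replicate 1 (adjusted p = 0.0548 and 0.0791). In all 3 of 23 aquaporins rose and 6 fell, with 1 rise without 72 h replicate 1. The share of aquaporins that fell was also near that of all genes.

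Lipid synthesis had the highest share of calls of any list with 10 or more members, 84.0% of 25. Of these 6 rose and 15 fell, and the median was −0.50. Leaving out any 1 array gave 12 to 15 falls. The desaturases FAD3B and FAD3C, which make linolenic acid, fell by 1.21 and 1.33. FAD3C stood at 8.03, 8.22 and 8.36 at 72 h, against 9.28, 9.45 and 9.87 at 12 h (adjusted p = 3.36e-04), although its second probe set differed by 7.33e-04 only. Subunits of plastid acetyl-CoA carboxylase, which commits carbon to fatty acids, fell as well, ACCA-1 by 0.75 and ACCC-2 by 0.97. MGD1, a galactolipid synthase, fell by 0.92. The Δ12-desaturases did not move together: FAD2-1A, the form known from seeds, fell by 1.54, and FAD2-2 and FAD2-3 rose by 0.76 and 0.87. LOC100527582, named DGAT3-2, of a family that makes triacylglycerol, rose by 1.28. SACPD-C, a stearoyl-carrier-protein desaturase, had 14.54, 14.61 and 14.21 at 72 h and 13.68, 9.37 and 12.85 at 12 h. Its difference of 2.49 (adjusted p = 0.0213) did not pass without 12 h replicate 2 (1.19, adjusted p = 0.139), without 72 h replicate 1 or 2 (adjusted p = 0.0596 and 0.0544) or with the 6 arrays alone (adjusted p = 0.184).

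Transport and primary metabolism held some large changes of single genes. SAT1, a helix-loop-helix factor tied to ammonium transport in soybean nodules, had 13.57, 13.50 and 12.99 at 72 h, against 10.03, 10.16 and 9.52 at 12 h, a 10.9-fold rise (adjusted p = 8.93e-08). AS2, an asparagine synthetase, fell to 8.32, 8.30 and 9.67 at 72 h, against 11.59, 12.12 and 11.61 at 12 h. NRT2, a high-affinity nitrate transporter, stood at 3.09 on each 72 h array and at 6.75, 6.64 and 4.24 at 12 h. The nitrogen list counted 4 rises and 3 falls in 19 members, with 2 rises without 12 h replicate 1 or without 72 h replicate 2 or 3. The sugar exporters SWEET34 and SWEET29 rose by 2.97 and 2.46. SWEET34 was at 10.73, 10.60 and 9.98 at 72 h, against 7.53, 7.53 and 7.33 at 12 h. PPCK1, the kinase that activates phosphoenolpyruvate carboxylase, rose to 10.14, 9.40 and 9.77 at 72 h, against 7.10, 7.58 and 6.45 at 12 h, a 6.6-fold rise. PEPC17, one of the carboxylases, fell to 8.24, 8.19 and 8.25 at 72 h, against 9.44, 9.20 and 9.30 at 12 h. The organic acid list counted 1 rise and 4 falls in 14 members, with a median of −0.37. That share of falls was near the 27.5% of all genes, and 2 fell without 72 h replicate 1. PHT1-3, a phosphate transporter, rose by 1.45, and NHX1, a vacuolar cation antiporter, fell by 0.95. Of 12 cyclophilins, protein-folding isomerases, none rose and 5 fell, with CYP17 at −1.20, and 1 rose without 72 h replicate 3. Of 6 genes of ribosome and translation 5 fell by 0.29 to 0.37, but only 1 fell without 72 h replicate 1 and 3 without 12 h replicate 3.

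None of the 3 genes listed for a known link to Al passed. FRD3a, of the citrate exporter family that confers Al tolerance in other plants, had 9.63, 9.17 and 9.67 at 72 h and 8.85, 9.18 and 9.02 at 12 h, a difference of 0.48 (adjusted p = 0.0707). Without 72 h replicate 2, the array that overlapped the 12 h values, it was 0.64 (adjusted p = 0.0293). STOP1, the zinc finger factor of Al and acid tolerance known from Arabidopsis, stood at 10.37, 10.32 and 10.22 at 72 h and 10.56, 10.59 and 10.47 at 12 h. Its arrays did not overlap between the times, but the difference of −0.24 had an adjusted p of 0.0899, against 0.0366 with the 6 arrays alone. SALI5-4A, first described as an Al-induced soybean root gene, was intense at both times, with 13.66, 14.22 and 14.58 at 72 h and 14.53, 14.75 and 14.24 at 12 h (−0.35, adjusted p = 0.592).

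Clock and light genes passed in both directions. LHY, a morning-phased clock factor in Arabidopsis, fell to 6.66, 6.89 and 6.39 at 72 h, against 8.07, 8.62 and 8.56 at 12 h, by 1.77 ± 0.26 (SE, adjusted p = 6.54e-05). LUXC, whose Arabidopsis relative belongs to the evening complex, had 11.70, 11.53 and 11.80 at 72 h and 10.87, 10.59 and 10.88 at 12 h, a rise of 0.90, while its second probe set stood at −0.63. CRY2B, a blue-light receptor, fell by 2.28. Of 13 members 2 rose and 4 fell, with 1 rise without 72 h replicate 1. Whether these differences go with time of day was not tested. Photosynthesis genes, markers of green tissue, included some of the largest rises. CAB3, a chlorophyll-binding protein, had 10.23, 9.99 and 10.70 at 72 h, against 5.92, 6.54 and 6.32 at 12 h, a 16.5-fold rise (adjusted p = 3.32e-07), but its 5 probe sets ran between −0.90 and 6.08. LOC547819, named LHCP, a light-harvesting protein, had 8.02, 7.01 and 7.94 at 72 h, and 1 of its 12 h arrays lay above background, so its rise was 4.82 or more. RCABETA, Rubisco activase, rose by 2.20. In the list 4 of 10 rose and PSAD, a photosystem I subunit and the most intense member, fell by 0.54. The summed intensity of the list therefore ran the other way, 13050 to 17330 at 72 h and 18230 to 20160 at 12 h. The part of green tissue in these values was not tested.

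The same time difference under Al plus Mg asks whether these changes depend on the treatment of the root. In PI under Al plus Mg, 8154 probe sets (21.7%) were higher at 72 h than at 12 h and 8430 (22.4%) lower, 44.1% in all. Of the 5900 rises under Al alone, 2810 (47.6%) were also rises under Al plus Mg, 34.5% of those, and 746 were falls there. Of the 8844 falls under Al alone, 5340 (60.4%) were also falls under Al plus Mg, 63.3% of those, and 254 were rises. The difference between the time differences, tested as an interaction, passed for 6521 probe sets (17.3%), with 3019 (8.03%) higher under Al alone and 3502 (9.32%) lower. Among the rises under Al alone 32.9% also passed as higher in this test, and among the falls 13.4% passed as lower.

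Defence genes and their regulators were among those that differed. PR-10 had means of 14.09 ± 0.35 (SD, n = 3) at 72 h and 12.60 ± 0.47 at 12 h under Al alone, and it lay at background on all 3 arrays at 72 h under Al plus Mg, with 12.83 at 12 h. WRKY30 at 72 h averaged 11.42 under Al alone, against 3.08 under Al plus Mg, while the 12 h means were 5.51 under Al alone and 6.73 under Al plus Mg. CYP82A2 averaged 13.37 at 72 h and 10.16 at 12 h under Al alone, and 4.44 at 72 h and 10.39 at 12 h under Al plus Mg. These genes thus rose under Al alone and fell under Al plus Mg. PSK5 lay at background at both times under Al plus Mg. Of all probe sets 8.03% passed the interaction as higher and 9.32% as lower. List members are genes, and the interaction's share among all genes is not given here. For the time difference the share of genes was larger, 47.2% against 39.2% of probe sets. In the defence list 11 of 25 members passed the interaction as higher under Al alone and none as lower. The NAC list had 10 of 20 and none, the glutathione transferase list 14 of 37 and none, and the WRKY list 17 of 53 and 4. In the phenylpropanoid list 15 of 53 passed as higher and none as lower. All 3 alternative oxidases passed as higher under Al alone, AOX1 with an interaction of 5.74. More members passed as lower than as higher among the 23 aquaporins (1 higher, 6 lower), the 9 auxin genes (none higher, 4 lower) and the 6 gibberellin genes (1 higher, 4 lower). The gibberellin gene that was higher was GA2OX8, which rose by 2.59 under Al alone and fell by 1.67 under Al plus Mg. GA2OX6, of the same family, passed as lower (interaction −2.11), a call that ended with some single arrays left out. H1 fell under both treatments, to a mean of 3.91 at 72 h against 6.97 at 12 h under Al alone, and to 6.12 at 72 h against 7.01 at 12 h under Al plus Mg (interaction −2.18, adjusted p = 0.00119). BBI-2, a protease inhibitor of the Bowman-Birk type, fell by 1.41 under Al alone and rose by 1.47 under Al plus Mg. By contrast CAB3, LHY and CRY2B had time differences of 4.05, −1.77 and −2.28 under Al alone and of 4.4, −1.605 and −2.87 under Al plus Mg. Their interaction did not pass (adjusted p = 0.703, 0.833 and 0.514), and lipid synthesis had 0 members higher and 2 lower of 25 in the interaction. Other members of the lists of CAB3, LHY and CRY2B did pass. The photosynthesis list had 0 members higher and 2 lower of 10, and the clock and light list 0 higher and 2 lower of 13.

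**Figure D4:**
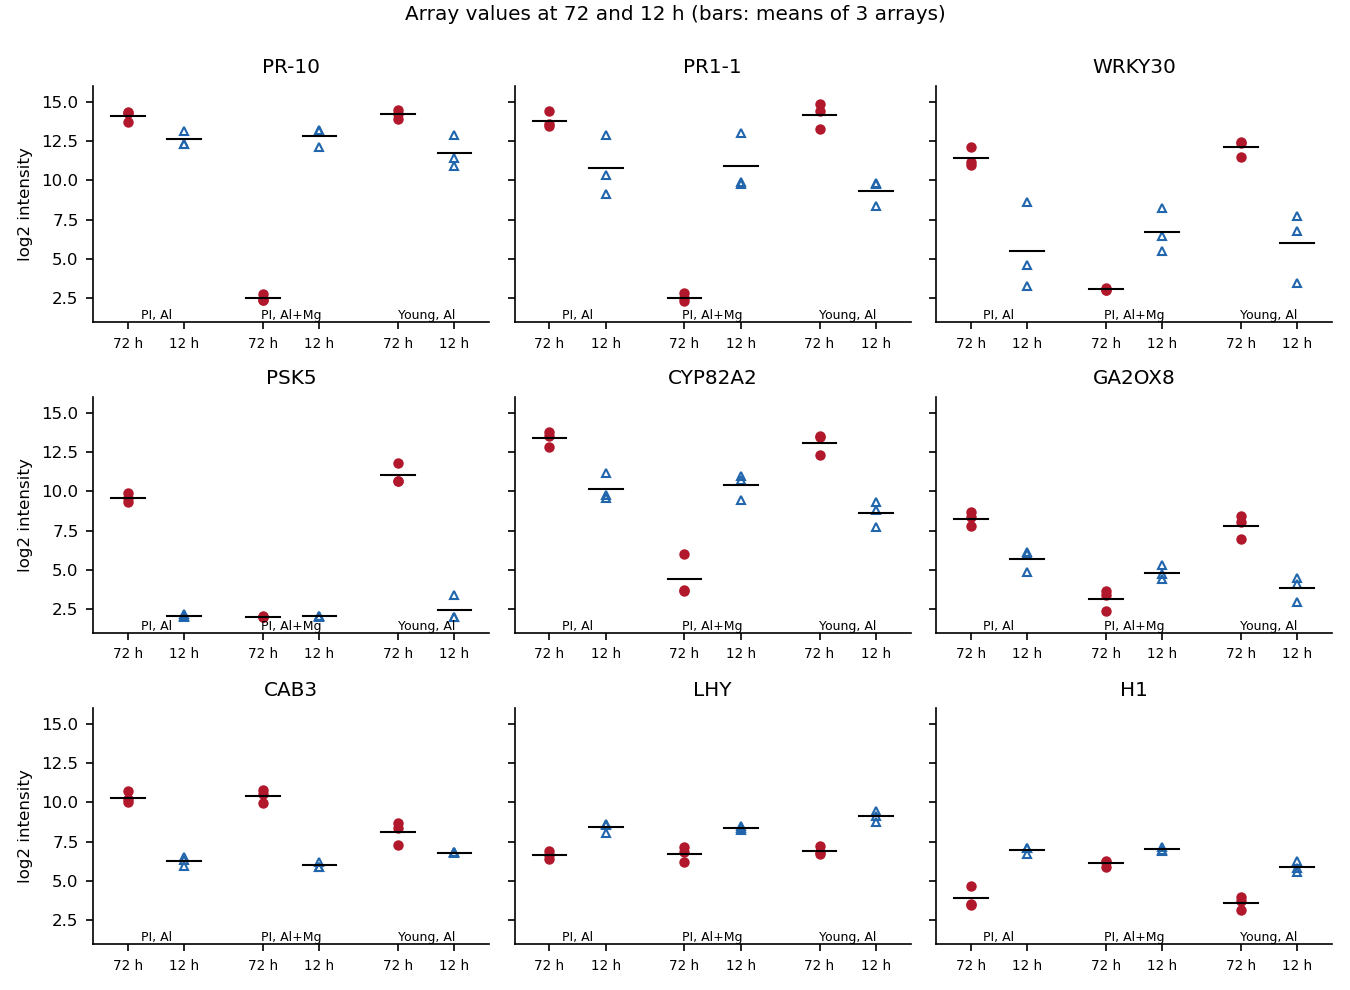
Log2 intensities of 9 genes on each array, with 72 h left of 12 h in PI under Al alone, PI under Al plus Mg and Young under Al alone, and bars at the means of 3 arrays. PR-10, PR1-1, WRKY30 and CYP82A2 are high at 72 h under Al alone in both genotypes and low at 72 h under Al plus Mg, while LHY and CAB3 keep the direction of their time difference in all 3 pairs.

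In Young under Al alone the time difference was broader, with 7788 probe sets (20.7%) higher at 72 h than at 12 h and 10890 (29%) lower, 49.7% in all. Of the rises in PI, 4713 (79.9%) were also rises in Young, 60.5% of those there, and of the falls in PI 7368 (83.3%) were also falls in Young, 67.7% of those there. Only 37 rises and 19 falls in PI passed in the opposite direction in Young. The difference between genotypes passed for 973 probe sets (2.59%), 510 (1.36%) higher in PI and 463 (1.23%) lower. That count was sensitive to the arrays used. The higher calls numbered 330 without 72 h replicate 1, 244 without 12 h replicate 1 and 224 without 12 h replicate 2. The lower calls numbered 296 without 72 h replicate 2, 306 without 12 h replicate 1 and 245 without 12 h replicate 2. Of the rises in PI 2066 passed as rises in all 3 pairs of groups, and of the falls 4542 did.

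Few named genes differed between the genotypes, and some of them lay at background in PI. CAB3 rose by 4.05 in PI and by 1.3 in Young (interaction 2.75, adjusted p = 0.00817). GLYI-19, of the glyoxalase I family that detoxifies methylglyoxal, rose by 2.72 in PI and by 6.62 in Young (interaction −3.90, adjusted p = 0.00760, and 0.0672 with the arrays of the comparison alone). SABATH2, of a methyltransferase family, had 2.45, 4.48 and 4.6 in PI at 72 h and lay at background in PI at 12 h, while its fitted rise in Young was 8.40. WRKY40 lay at background at both times in PI. GSTL1, a lambda-class glutathione transferase, rose in PI by 1.41 and stood at −0.86 in Young (adjusted p = 0.0835), with an interaction of 2.27 (adjusted p = 0.0394) that did not pass without any 1 of the 6 arrays of PI (adjusted p = 0.0580 to 0.0912). SWEET29 rose in both, by 2.46 in PI and 3.68 in Young (interaction adjusted p = 0.0403). Across the lists, at most 4 members of any list passed this interaction in 1 direction: 4 of 53 WRKY factors were lower in PI and 0 higher. Some small lists had larger shares. Of 9 senescence genes 3 were lower in PI and 0 higher, and of 10 photosynthesis genes 2 were higher and 0 lower.

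**Figure D5:**
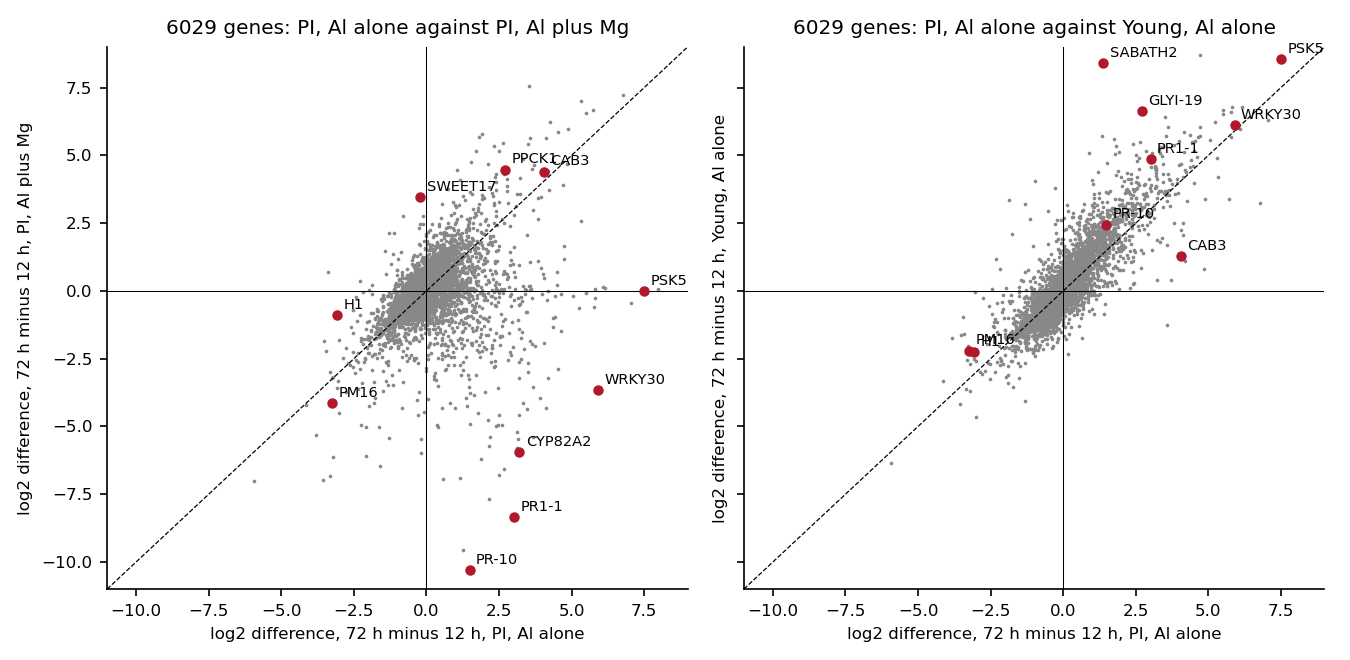
Log2 time differences, 72 h minus 12 h, of 6029 genes in PI under Al alone (horizontal) against PI under Al plus Mg (left panel, vertical) and Young under Al alone (right panel, vertical). The dashed line marks equal differences. PR-10, PR1-1, WRKY30 and CYP82A2 lie right of 0 and far below the line on the left, and SABATH2 and GLYI-19 lie above it on the right. The comparisons under Al alone and under Al plus Mg share no arrays.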

How the data were processed

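The deposited table held 1 intensity for each of 61170 probe sets on each of 24 arrays, on a linear scale and as deposited by the authors. How background, probe summary and normalization were handled is not given in the sources used here. Array medians ran between 6.42 and 7.15. Biotin-labelled RNA was made from an oligo-dT primer, per the labels' protocols.

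Intensities were floored at 1 and taken to log2. limma 3.58.1 in R 4.3.3 fitted 1 mean for each of the 8 groups of 3 arrays (16 residual and 1.13 prior degrees of freedom), and p-values were adjusted by Benjamini-Hochberg over 37593 soybean probe sets in each comparison. The 2 interactions were the PI time difference under Al alone minus that under Al plus Mg, and the time difference under Al alone in PI minus that in Young. The signal filter was the 95th percentile, 2.40, of the means of 23394 probe sets for other organisms, with controls and 48 soybean ribosomal RNA sets left out. Where all arrays of a group lay at background, folds were computed against their bounds and written as at least that size. Where only some did, those arrays were set to their bound.

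A platform table and RefSeq names (Glycine_max_v4.0) paired 8677 probe sets with 1 gene, 370 with several and 28546 with none. A gene is represented by its probe set of highest mean. The 46 lists, with 802 entries, were written from gene names, and PT01 was moved to another list and 1 list renamed after values had been seen. The members and lists were chosen with earlier results of these data known. The rule for named genes took the 15 largest rises and 15 largest falls whose arrays did not overlap, up to 4 passing members of each list, the 6 largest interactions in each direction, and the 3 Al genes. Other list members in the text were picked after their values were seen. On simulated arrays of the 72 h against 12 h comparison the fit recovered 22.4%, 62.7% and 86.4% of probe sets changed by 0.5, 1 and 2 on the log2 scale, with 3.39% false calls. The changed probe sets were 67, 67 and 66 of 37593, all above the signal filter, with independent normal noise. In the data 39.2% of probe sets passed, and rates with so large a changed share were not simulated. Alternatives are given under the dependence on processing.

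The 3′ to 5′ signal ratio of control transcripts, a measure of RNA and labelling quality, was 2.51 ± 0.36 at 72 h and 2.95 ± 0.23 at 12 h for P450, and 2.52 ± 0.27 at 72 h and 3.32 ± 0.23 at 12 h for glutathione transferase (SD, n = 3 each). In two-sided exact permutation tests of 8 ratios, where 3 arrays against 3 cannot give a p below 0.1, the lowest p was 0.1 (adjusted p = 0.267). Ratios at that p did not overlap between the times. They were glutathione transferase 3′ to 5′ (2.29 to 2.82 at 72 h, 3.18 to 3.58 at 12 h) and 2 ratios of 3′ to middle signal. Those 2 were P450 (1.45 to 1.66 at 72 h, 1.87 to 2.08 at 12 h) and actin (1.47 to 1.59 at 72 h, 1.61 to 1.83 at 12 h). The other ratios had p of 0.3 to 0.9. The part of this in the results was not tested. Replicate numbers were checked for pairing: same-numbered arrays of 72 h and 12 h had deviations correlated at 0.15, −0.19 and 0.27. The numbers were not used as pairs, although so few arrays cannot exclude a shared run for each number.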

Additional observations from a re-analysis of the deposited data

Results flagged for a closer look

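The interaction of time with treatment in PI was largest for the following named genes, each past an adjusted p of 0.05 in limma (time difference under Al alone minus that under Al plus Mg, as fitted on the log2 scale). Higher under Al alone were PR-10 at 11.8, PR1-1 at 11.4, LOC100780605 (CYP71D8) at 9.82, WRKY30 at 9.56, CYP82A2 at 9.15 and WRKY17 at 8.62. PR-10 and PR1-1 lay at background on all 3 arrays at 72 h under Al plus Mg, so their size depends on values below the bound. Lower under Al alone were SWEET17 at −3.67, BBI-2 at −2.89, H1 at −2.18, GA2OX6 at −2.11, PSK3 at −2.03 and ICL1 at −1.99. Of these 12 interactions, SWEET17 (adjusted p = 0.0555 without 12 h replicate 2), GA2OX6 (0.0706 to 0.0955 without 72 h replicate 2 or 3 or 12 h replicate 2 or 3) and ICL1 (0.0647 to 0.119 without any array but 72 h replicate 3) did not pass with some 1 array left out. Only arrays of PI under Al alone were left out, so dependence on single arrays of Al plus Mg was not tested.

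The interaction of time with genotype under Al alone (PI minus Young) was largest for the named genes that follow. Higher in PI were LOC547819 (LHCP) at 4.03, CAB3 at 2.75, GSTL1 at 2.27, BZIP112 at 1.68, WRI1B at 1.60 and SABATH1 at 1.31. Lower in PI were SABATH2 at −7.01, GLYI-19 at −3.90, WRKY63 at −3.25, SIK2 at −2.65, KR3 at −2.23 and WRKY40 at −2.16. SIK2, KR3 and WRKY40 lay at background on all 6 arrays of PI. LOC547819, GSTL1, BZIP112 and WRKY63 did not pass with some 1 array of PI left out (adjusted p = 0.0580 to 0.102), and 6 of the 12 did not pass with the arrays of the comparison alone.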

How the results depend on the processing

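The alternatives were equal array medians, quantile normalization, a signal filter, a test over all probe sets but controls, a variance trend with robust estimation, the arrays of the comparison alone, an offset of 32, a 2-fold limit, the replicate number as a block, and each of 6 arrays left out in turn. Those 6 were the arrays of PI under Al alone, and no array of Al plus Mg or of Young was left out. No value of the 180 tests of named genes reversed over 2520 alternative fits (the 2-fold limit not among them), and 224 of these changed their side of the threshold, for 66 of the tests. Of 350 list members that passed, 124 did not pass with some 1 array left out. With each array left out, the time difference gave 4387 to 5770 rises and 6744 to 8722 falls, the interaction with treatment 2512 to 3137 higher and 2544 to 3201 lower, and the interaction with genotype 224 to 434 higher and 245 to 413 lower. A 2-fold limit gave 2944 rises and 2098 falls, 882 lower in the interaction with treatment, and 218 higher and 307 lower in that with genotype. The last had 274 higher and 265 lower over all probe sets but controls, and 108 and 130 with the arrays of the comparison alone. The other planned counts stayed within 1.5 times those given. Among them, the interaction with treatment had 2806 higher and 4675 lower with equal array medians, and 2837 and 4438 with quantile normalization. The balance of its 2 directions thus varied with array scaling. The 3′ to 5′ ratio differed between 72 h and 12 h by 0.0176 for actin and 0.112 for the second actin set, against −0.434 for P450.

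With the replicate number as a block there were 5744 rises and 8641 falls, 2909 higher and 3233 lower in the interaction with treatment, and 392 and 380 in that with genotype. Whether the numbers pair the arrays cannot be decided from 3 arrays a time. Of the 3 arrays at 72 h, 2 were best matched by their own number. With the block the time differences of GAI1, CDPK, CAT4 and EF1BGAMMA4 no longer passed (adjusted p = 0.0510 to 0.0620), nor did the genotype interactions of BZIP112 and WRKY63 (adjusted p = 0.0584 and 0.0554).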

Other observations

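Senescence and storage genes held changes not described above. VPE2, a vacuolar processing enzyme that matures proteins in the vacuole, had 6.22, 5.58 and 7.72 at 72 h and 3.41, 3.76 and 3.16 at 12 h, a rise of 3.06 (adjusted p = 0.00183). Of 9 senescence genes 4 rose and none fell, with 1 rise without 72 h replicate 1 and 2 without 12 h replicate 2. PM16, a seed maturation protein, fell to 3.07, 3.29 and 3.07 at 72 h, against 7.23, 5.57 and 6.35 at 12 h, while PM40 rose by 2.1, and ERD15, a dehydration-responsive gene, by 1.62. Of the 31 genes of dehydration and seed maturation 15 lay at background on all 6 arrays, 3 rose and 1 fell, with 3 falls without 12 h replicate 2 and 2 without 12 h replicate 3. Among the largest falls without a role given here, LOC100527907, named SCCW, had 7.73, 8.19 and 9.04 at 72 h and 11.87, 11.99 and 11.77 at 12 h. LOC548088, named ODC1, had 11.95, 12.11 and 11.88 at 72 h and 14.28, 14.03 and 14.30 at 12 h. ICE4, of a family of cold-response regulators, fell by 2.52 or more, with 1 array at 72 h at background, and its second probe set differed by 9.61e-04.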
